A study of Drosophila melanogaster with 3 samples.

Results

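The 9 genes described here are bcd, nanos (also written nos), cad, tor and tsl, whose products the mother supplies, and gt, kni, tll and hkb, which the zygote transcribes as gap genes. They were chosen by name from the fly release 6 annotation and are 9 of 13945 protein-coding genes on the main chromosome arms. The study has 1 group, of 3 biological replicates: whole embryos of both sexes, collected from 0 to 24 hours, of a fly line in which an eGFP exon inside an intron of dpn makes a fusion of Deadpan with eGFP. Fragments of 200 to 800 bp made by sonication were pulled down through the GFP tag. All tissues and all stages of embryogenesis are mixed, and the control library was not analysed here. The files hold ranked peak lists and no read counts, and the depth of each library is therefore unknown. Each replicate list and the list from the pooled replicates held 30000 entries. Of the pooled entries 5164 passed the irreproducible discovery rate (IDR) threshold, a cut on how well ranks repeat between replicates. The pooled list is labelled as peaks and background given as input to that cut.

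The anterior-posterior axis of the fly embryo is laid down by maternal products and read out by gap genes. Messenger RNA of bcd lies at the anterior pole and that of nanos at the posterior pole, and both proteins act as graded determinants. Torso, the receptor tyrosine kinase encoded by tor, is activated at the poles with the help of tsl, which is transcribed in follicle cells of the mother's ovary. Gap genes such as gt, kni, tll and hkb then encode transcription factors that divide the embryo into broad domains. Deadpan is a repressor of the Hes family of basic helix-loop-helix proteins and is known from neural stem cells and from early sex determination.

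The sequences below are the 101 bp around a summit, with the summit in the middle, of 4 reproducible peaks by maternal genes and of pooled entries below the threshold by 3 gap genes. For kni and tll the highest-ranked entry that all 3 replicates held is shown, and for hkb the highest-ranked entry nearest to its own start site. They are shown because the text turns on these places. Each is the plus strand of release 6 (dm6), read from the RefSeq genome. Capitals mark CACNAG (the N-box of Hes proteins), CACGCG (an E-box of Hes proteins), TATCGA (part of the element of the promoter factor DREF) and TTTATG (a Caudal site), on either strand.
bcd (chr3R:6759651-6759751): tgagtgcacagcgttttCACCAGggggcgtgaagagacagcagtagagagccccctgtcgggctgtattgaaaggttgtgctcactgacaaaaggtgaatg
nanos (chr3R:19162303-19162403): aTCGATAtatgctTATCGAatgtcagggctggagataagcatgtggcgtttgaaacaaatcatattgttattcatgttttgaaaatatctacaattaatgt
cad (chr2L:20780891-20780991): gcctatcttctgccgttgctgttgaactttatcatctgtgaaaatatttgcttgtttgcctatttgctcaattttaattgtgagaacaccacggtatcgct
tsl (chr3R:21781535-21781635): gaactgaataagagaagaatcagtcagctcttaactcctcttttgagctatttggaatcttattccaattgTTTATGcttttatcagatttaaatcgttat
kni (chr3L:20700721-20700821): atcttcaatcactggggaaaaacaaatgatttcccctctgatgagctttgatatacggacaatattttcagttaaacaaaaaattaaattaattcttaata
tll (chr3R:30860469-30860569): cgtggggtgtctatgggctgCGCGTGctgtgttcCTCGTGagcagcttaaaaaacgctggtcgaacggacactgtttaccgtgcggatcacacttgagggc
hkb (chr3R:4346027-4346127): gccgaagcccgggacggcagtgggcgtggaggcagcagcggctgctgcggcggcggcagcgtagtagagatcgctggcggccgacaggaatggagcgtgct

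The first question was which of the genes had a reproducible peak. An IDR-thresholded peak with its summit in the gene body or within 10 kb was present for all 5 maternal genes and for 1 of the 4 zygotic gap genes, 6 of the 9 in all, beside 67.5% of all protein-coding genes. A peak within 1000 bp of one of the gene's own start sites was present for bcd, nanos and tsl and for no zygotic gap gene, 3 of the 9 in all, beside 27.9% of all protein-coding genes. For the 9 genes together both counts lay close to these shares of all genes. The windows held 10 such peaks, 9 around maternal genes and 1 around hkb. All 10 had a summit within 150 bp in each of the 3 replicate lists, and 9 had one within 100 bp. Peaks that pass the threshold are chosen for ranks that repeat, and the same share over all of them is not given here.

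**Figure D1:**
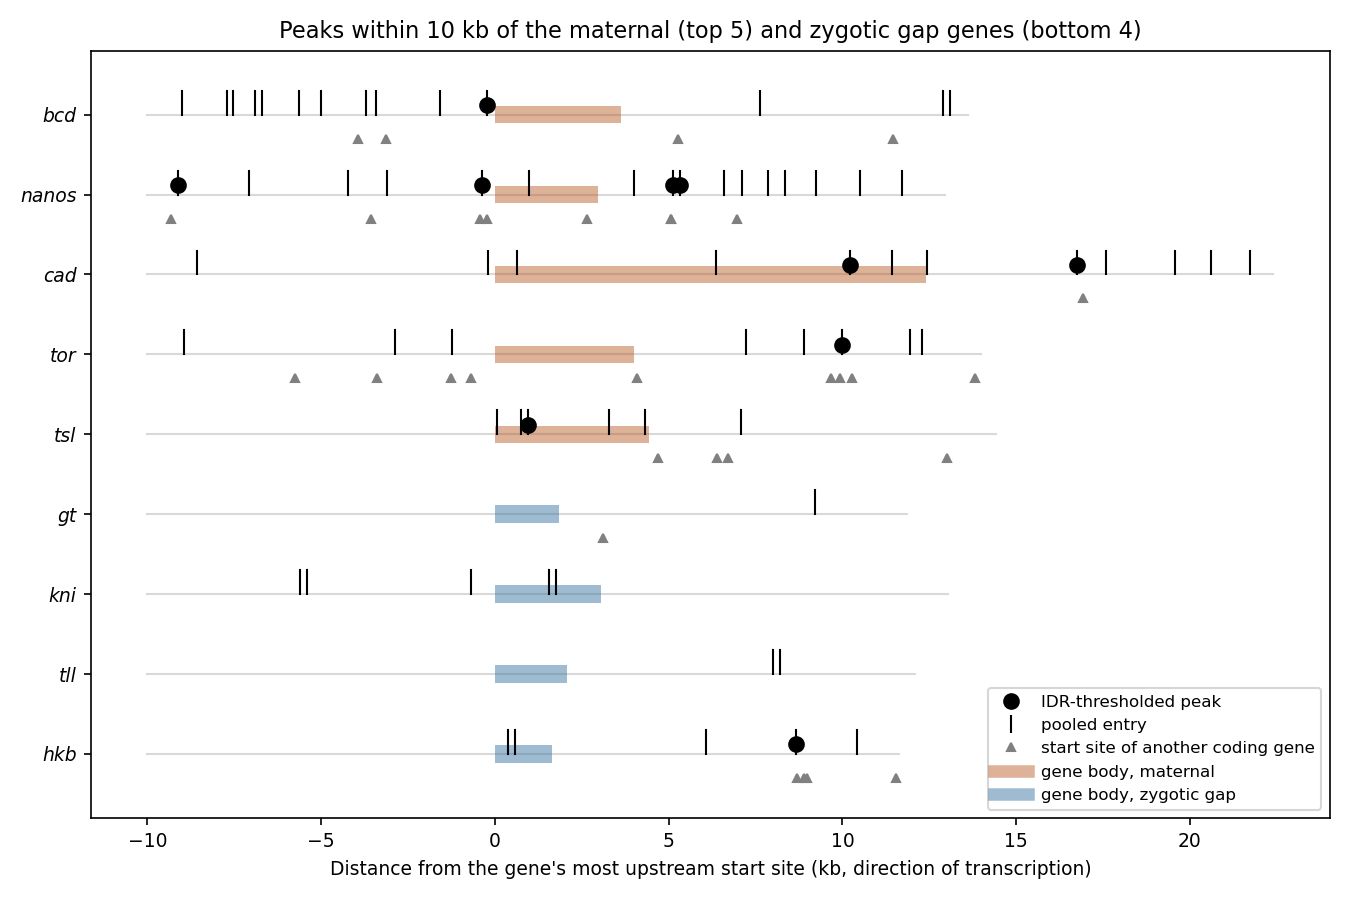
Positions of peaks around each gene: the horizontal axis is the distance in kb from the gene's most upstream start site, circles are IDR-thresholded peaks, ticks are entries of the pooled list and triangles are start sites of other protein-coding genes. The 5 maternal genes, on top, hold 9 circles and 56 ticks, and the 4 zygotic gap genes hold 1 circle and 13 ticks.

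The peak of bcd (FBgn0000166), which encodes the homeodomain protein Bicoid, was the clearest case of a peak at a member's own promoter. It spanned 203 bp on chromosome 3R (6759602 to 6759804), and its summit lay 235 bp upstream of the start site in sequence without an annotated gene. The peak held rank 1032 in the pooled list and ranks 1024, 1025 and 1137 in replicates 1, 2 and 3, so the 3 replicates placed it almost alike. Its summit window, printed above, holds the N-box form CACCAG. No other IDR-thresholded peak lay in the window of bcd, although it held 14 pooled entries. Of these others, the strongest were at ranks 5790 and 5880, beside start sites of Ama, the gene of the adhesion protein Amalgam.

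Torso-like, the product of tsl (FBgn0003867), had its peak inside the gene, in an intron 951 bp downstream of the start site (chromosome 3R, 21781377 to 21781792). Its rank was 1793 in the pooled list and 2644, 1042 and 2417 in replicates 1, 2 and 3. Replicate 2 thus placed it higher than the other two did. A pooled entry that overlapped this peak, at rank 7601, had its summit over the 5' UTR, 747 bp from the start site, and was matched by the same entry of replicate 2. Replicate 2 also stood apart in the number of entries around tsl, with 11 against 4 in replicate 1 and 7 in replicate 3, and 9 of its 11 had no pooled summit within 150 bp.

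Caudal, the homeodomain product of cad (FBgn0000251), is supplied by the mother and also made by the zygote. One of its peaks lay in an intron of cad, 10047 bp downstream of the nearest start site (chromosome 2L, 20780733 to 20781148), at rank 2781 in the pooled list and ranks 2739, 5436 and 2200 in replicates 1, 2 and 3. In replicate 2 it thus lay below rank 5164, while replicates 1 and 3 placed it well above. Its other peak lay outside the gene, 176 bp from the start site of Pomp, a proteasome maturation gene, at pooled rank 1442 and at ranks 1085, 2994 and 1115 in the replicates. At the start site of cad itself the pooled list had an entry 188 bp upstream with rank 13378, which was present in replicates 1 and 3 at ranks 10879 and 20270 and had no match in replicate 2. Another entry, over a coding exon 469 bp downstream with rank 13637, was matched in replicates 1, 2 and 3 at ranks 26948, 8743 and 29046. The entries by the start site of cad were therefore far below the IDR threshold, while its intron had a reproducible peak.

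The gene nanos (FBgn0002962), whose product represses translation at the posterior pole, had 4 IDR-thresholded peaks in its window, the most of the 9 genes. The peak nearest to it (chromosome 3R, 19156646 to 19157061) had its summit at -384 bp relative to its start site and 42 bp from a start site of the overlapping gene CG11779, in the 5' UTR of that gene. This peak ranked 1308 in the pooled list and 1081, 1524 and 1522 in replicates 1, 2 and 3. It cannot be told from the position whether it belongs to nanos or to CG11779. The strongest peak of all 9 windows lay 5115 bp downstream of the start site of nanos and 53 bp from that shared by CG42359 and Nsun5 (chromosome 3R, 19162247 to 19162508), with pooled rank 355 and ranks 313, 471 and 333 in the replicates. Its summit window holds TATCGA on both strands. A weaker neighbour, with a summit 260 bp from the same start site, ranked 3331 in the pooled list and 2498, 13421 and 6681 in the replicates, the widest spread of the 10 peaks. The remaining peak had its summit at -9113 bp, 215 bp from the start site of Ppcs, a gene of coenzyme A synthesis, at pooled rank 1236 and ranks 1203, 1074 and 1669.

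The only reproducible peak in the window of tor (FBgn0003733) lay outside the gene. Its summit was 5994 bp beyond the gene body and 64 bp from the start site of Coq9, a gene of coenzyme Q synthesis (chromosome 2R, 7698981 to 7699396). The ranks were 2602 in the pooled list and 2975, 2844 and 2431 in replicates 1, 2 and 3, so the replicates placed this neighbouring promoter alike. No pooled entry had its summit in the body of tor, and the pooled entry nearest to its start site, at rank 23013, lay at -1239 bp and had no match in any replicate. Closer entries, which the pooled list lacked, lay at -357 bp in replicate 1 (rank 13761) and at -961 bp in replicate 2 (rank 21769). Both were nearer to a start site of CG1941 than to that of tor.

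**Figure D2:**
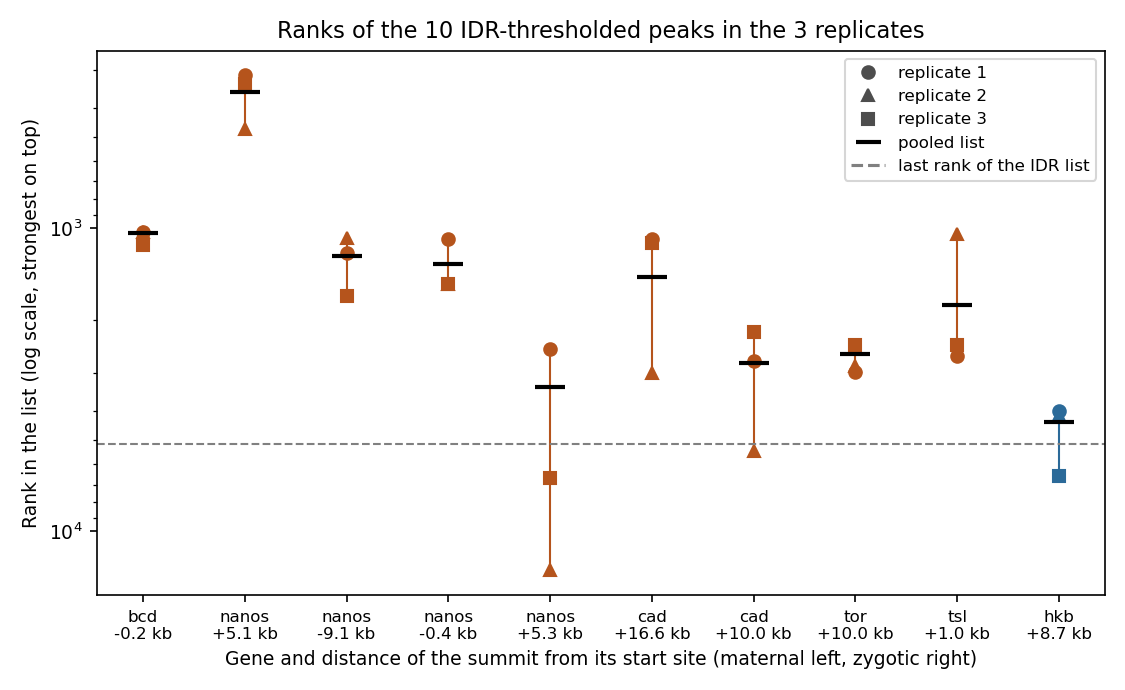
Ranks of the 10 IDR-thresholded peaks in the windows of the 9 genes: the vertical axis is the rank in a list on a log scale with the strongest on top, symbols are the 3 replicates and black bars the pooled list. The peak of bcd lies between ranks 1024 and 1137 in the replicates, while the peak 5.3 kb from nanos lies between ranks 2498 and 13421.

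Of the zygotic gap genes, hkb (FBgn0261434), which encodes the zinc finger protein Huckebein, was the only one with an IDR-thresholded peak in its window. That peak lay 7041 bp from the gene body and 22 bp from the start site of CG1103, in the 5' UTR of that gene (chromosome 3R, 4337766 to 4338181). It ranked 4356 in the pooled list, close to the threshold at 5164, and 4009, 4126 and 6566 in replicates 1, 2 and 3. Over the coding exons of hkb itself the pooled list had overlapping entries at ranks 10465 and 24670. The first was matched at ranks 6298 and 12705 in replicates 2 and 3 and was absent from replicate 1. The second had no match in replicates 1 and 2.

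For giant, the gene gt (FBgn0001150) of a leucine zipper protein, the pooled list held a single entry, 9215 bp downstream of the start site, at rank 11936. Its ranks in replicates 1, 2 and 3 were 22590, 28409 and 10722, low in each list. Replicates 2 and 3 had further entries in the body of gt, 1245 and 1009 bp from its start site, at ranks 28839 and 19827, which the pooled list lacked. The nearest reproducible peak lay 15038 bp from the gene, 29 bp from the start site of tko, a mitochondrial ribosomal protein gene.

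Around kni (FBgn0001320), which encodes a protein of the nuclear receptor family, 5 pooled entries formed 3 separate regions. The entry of highest rank, 13294, lay over a coding exon 932 bp downstream of the nearest start site, at ranks 17609 and 16841 in replicates 1 and 3 and absent from replicate 2. A region about 5.4 kb upstream, with the entry of rank 13862, was present in all 3 replicates at ranks 19342, 25640 and 10024. The third region, at rank 28261, lay 677 bp upstream and was matched in replicate 2 alone. The nearest reproducible peak was 15348 bp from the gene and 3374 bp from the start site of CG34260.

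Tailless, the nuclear receptor encoded by tll (FBgn0003720), had pooled entries in 1 region, about 8 kb downstream of its start site. Its overlapping entries ranked 6936 and 7731 in the pooled list, the highest of the 3 gap genes without a reproducible peak. The first was matched in replicate 2 alone, at rank 5172, just below the last rank of the IDR-thresholded list. The second was matched at ranks 9963, 19103 and 5767 in replicates 1, 2 and 3, and its window holds CACGCG and the N-box form CACGAG, both on the minus strand. The nearest reproducible peak lay 33517 bp away, by Sap-r.

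The authors' −log10 q-value in the pooled list was also given for each entry. It was 4.05 at each of the 10 reproducible peaks, a value that ranks them no further. It was 0.84 at the entry of gt, 0.69 at the highest-ranked entry of kni, 2.37 and 1.92 at the entries of tll and 1.07 at the first coding-exon entry of hkb. Low values were not particular to the gap genes. Over entries below the threshold it ran from 0.13 to 3.59 around maternal genes and from 0.14 to 2.37 around zygotic gap genes.

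The second question was how maternal and zygotic genes compared over all entries, including those below the threshold. Entries below the threshold can be background, so the densities are of list entries and not of bound sites. Maternal windows, of 127 kb in all, held 47, 56 and 47 entries in replicates 1, 2 and 3, and zygotic windows, of 88.6 kb in all, held 12, 12 and 16. Per 10 kb this was 3.69, 4.39 and 3.69 entries around maternal genes and 1.35, 1.35 and 1.81 around zygotic gap genes, values that did not overlap between the classes. The mean density was 3.92 ± 0.408 entries per 10 kb for maternal and 1.5 ± 0.261 for zygotic windows (SD, n = 3 replicates), a difference of 2.42 ± 0.584 that was positive in 3 of 3 replicates. Since 3 replicates cannot give a two-sided p under 0.25 in an exact sign-flip test, and the members of a class are not replicates of it, no p is given. In the pooled list the densities were 4.39 and 1.47 entries per 10 kb.

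The genes of a class differed among themselves. Among maternal genes nanos had the highest density with 5.66, 6.97 and 5.66 entries per 10 kb in replicates 1, 2 and 3, followed by bcd with 5.93, 4.66 and 4.23. In the pooled list 95.5% of all protein-coding genes had a lower density than nanos and 89.5% a lower one than bcd. The values were 3.70, 3.39 and 3.39 for cad, 1.64, 4.50 and 2.87 for tsl, and 1.67, 2.92 and 2.50 for tor. The order of cad, tsl and tor does not hold beyond the spread of tsl. Zygotic genes reached 1.85, 2.31 and 2.31 for hkb, 1.74, 1.30 and 2.17 for kni, 0.915, 0.915 and 1.83 for gt, and 0.906 in each replicate for tll. The values of tor and tsl overlapped with those of hkb and kni, so the classes were separate as sums and not gene by gene. The median density in the pooled list was 3.70 entries per 10 kb for maternal genes and 1.54 for zygotic gap genes, beside 3.14 for all protein-coding genes (quartiles 1.44 and 4.67).

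**Figure D3:**
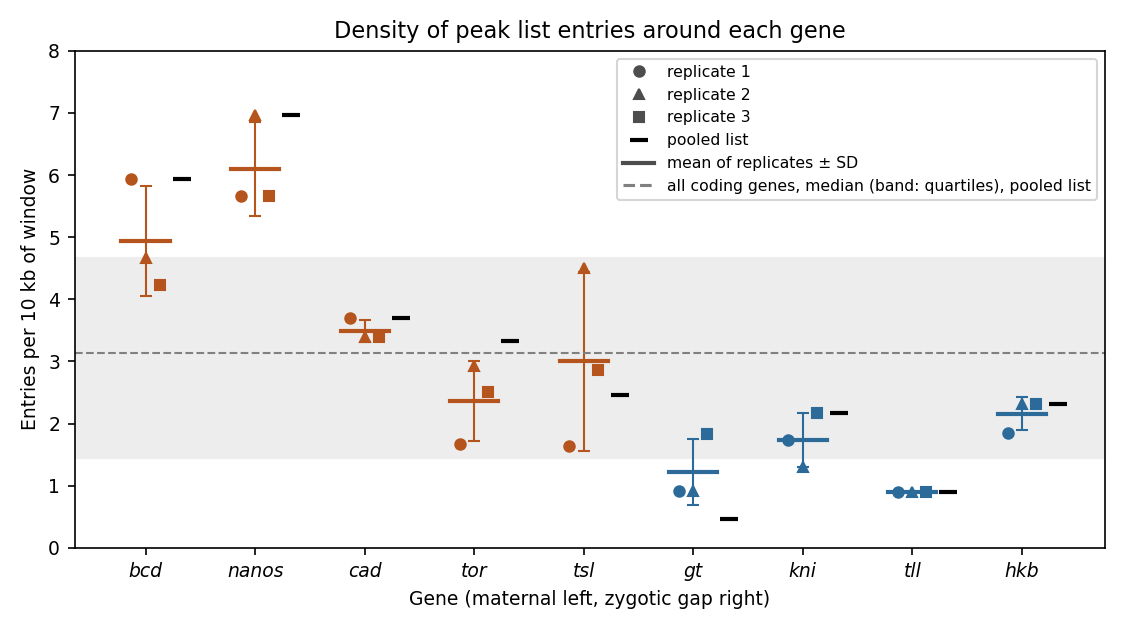
Entries per 10 kb of window for each gene: symbols are the 3 replicates, coloured bars their mean with the SD, black dashes the pooled list, and the dashed line with its band the median and quartiles of all protein-coding genes in the pooled list. By their means bcd and nanos lie above the other 7, and the means of tor, tsl and all 4 zygotic gap genes lie below the median of all genes.

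Other promoters lay in the windows of the 2 classes in unequal number. Start sites of 3, 6, 1, 7 and 4 other protein-coding genes lay in the windows of bcd, nanos, cad, tor and tsl, and of 1, 0, 0 and 3 in those of gt, kni, tll and hkb. Of the 9 reproducible peaks around maternal genes, 6 lay within 500 bp of the start site of another gene, as did the 1 around hkb. Across all protein-coding genes a reproducible peak in the window was present for 25.4% of the 649 genes with no other start site, 41.9% of those with 1, 58.1% of those with 2 to 3, 74.4% of those with 4 to 6, 83.3% of those with 7 to 9 and 65.9% of those with 10 or more. Up to 9 other start sites this share was higher in each step. Whether the number of other start sites bears on the contrast between the classes was not tested. With all sequence within 1000 bp of another gene's start site left out, a setting chosen after seeing the data, 3 reproducible peaks were left around maternal genes and 0 around zygotic gap genes. In that setting, on 87.9 kb of maternal and 83.3 kb of zygotic windows, the densities were 3.30, 4.33 and 3.64 entries per 10 kb in replicates 1, 2 and 3 for maternal genes and 1.08, 1.32 and 1.80 for zygotic gap genes.

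**Figure D4:**
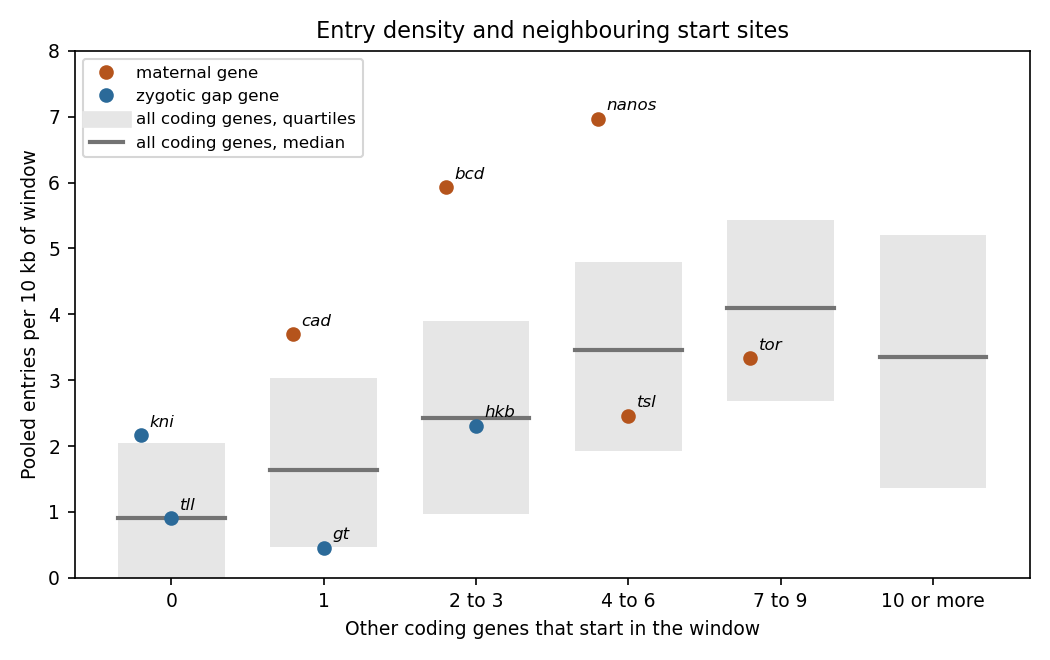
Pooled entries per 10 kb of window against the number of other protein-coding genes that start in the window: points are the 9 genes, grey boxes the quartiles and grey lines the medians of all protein-coding genes. The points of bcd, nanos, cad and kni lie above the upper quartile of genes with as many neighbours, that of gt just below the lower one, and those of tll, hkb, tsl and tor between the quartiles.

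The contrast also depended on the distance from the gene. Within 2 kb of the gene bodies the pooled list held 3.58 entries per 10 kb for maternal and 2.03 for zygotic genes. In the gene bodies alone the order of entry densities turned, with 3.65 for maternal and 4.64 for zygotic genes. The zygotic value rests on 4 entries over the coding exons of kni and hkb, and within each gene these entries overlap. The order was not checked with overlapping entries joined, so it is not shown for separate regions. Only 8 of the 56 pooled entries around maternal genes had the gene's own start site as the nearest protein-coding one, against 7 of 13 around zygotic gap genes. Those 7 were all entries of kni and hkb, some of them overlapping, and the window of kni held no start site of another protein-coding gene. The same share over all genes is not given here, so these counts are a description of the windows. Summits over coding exons made up 8 of 56 maternal and 5 of 13 zygotic pooled entries (14.3% and 38.5%), beside 17.1% of all pooled entries and 0.852% of all IDR-thresholded peaks.

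Entries below the threshold were matched in some replicates and not in others. Of 47 such entries around maternal genes, 10 had a match in all 3 replicates, 18 in 2, 16 in 1 and 3 in none. Around zygotic gap genes 3 of 12 had a match in all 3 replicates, 5 in 2 and 4 in 1. Neighbouring entries can share a match, and the same shares over all pooled entries below the threshold are not given here. Adjacent entries can overlap, and joining these gave 49 separate regions around maternal and 9 around zygotic gap genes.

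Short sequences at the 10 reproducible summits were then counted within 50 bp on either side, on both strands. The N-box CACNAG lay at 4 of the 10, those of bcd and 3 of nanos, beside 11.4% of all IDR-thresholded summits. Any E-box, CANNTG, lay at 6 of the 10 (37.8% of all), a motif that includes CACGTG. The Hes E-boxes CACGTG (0.910% of all) and CACGCG (1.92% of all) lay at 0 of the 10. The Bicoid site GGATTA lay at 2 of the 10 (2.81% of all), in the peak at -384 bp of nanos and in that of Coq9. TTTATG, a Caudal site, lay at 2 (11.4% of all), TATCGA at 1 (10.5% of all), and the Zelda core CAGGTA (2.19% of all) and GAGAGA of GAGA factor (4.4% of all) at 0. Counts this small are a description of these windows and show no preference.

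The third question was how other genes of early patterning stood by the same rules. Of 12 other maternal patterning genes 12 had a reproducible peak in the window and 7 had one within 1000 bp of a start site, and of 12 genes of the Torso signal the numbers were 10 and 8. Of 12 other gap and head gap genes 8 had a peak in the window and 3 had one near a start site. Pair-rule genes had 6 of 9 and 0 of 9, and Hox genes 6 of 8 and 0 of 8. Of all protein-coding genes 67.5% had a peak in the window and 27.9% had one near a start site. The lists are not separate, since slp1 and opa are in both the gap and the pair-rule list. The strongest peak of slp1 and of slp2 is the same one, of rank 229. The median of other start sites in the window was 5.5 for the other maternal genes, 6 for Torso signal genes, 0.5 for gap and head gap genes, 0 for pair-rule genes and 2 for Hox genes. These lists were not tested against each other.

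Among the other maternal genes the highest-ranked peaks lay in the windows of exu (IDR rank 145) and brat (170), followed by clos (288) and swa (625). That of brat, which encodes a translational repressor that acts with Nanos, lay 691 bp upstream of its own start site, at ranks 150, 213 and 176 in replicates 1, 2 and 3. The peaks listed for exu, clos and swa were nearest to start sites of Fem-1, CG1827 and Marf. Of the Torso signal, Raf, the kinase downstream of Ras, had a peak of rank 73 located 2263 bp downstream of its nearest start site, at ranks 68, 85 and 71 in the replicates. The co-repressor gene gro had a peak of rank 135, and drk one of rank 507, nearest to mars. Sos and the MAP kinase gene rl had none.

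Other gap genes were not uniformly empty. The strongest peaks of that list lay by slp1 (rank 229, nearest to slp2), cnc (rank 430, nearest to CG46310 and Irk1), fkh (rank 482) and btd (rank 1161, nearest to nej). That of fkh, a forkhead gene of the gut primordia, lay 224 bp upstream of its own start site, at ranks 389, 703 and 491 in replicates 1, 2 and 3. The trunk gap gene hb had a peak 314 bp downstream of a start site at rank 4632, with ranks 3179, 5378 and 8214 in the replicates, while Kr had none. The knirps paralog knrl, on chromosome 3L as kni is, had 2 reproducible peaks, the stronger of them 19752 bp downstream of its start site at rank 4467.

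**Figure D5:**
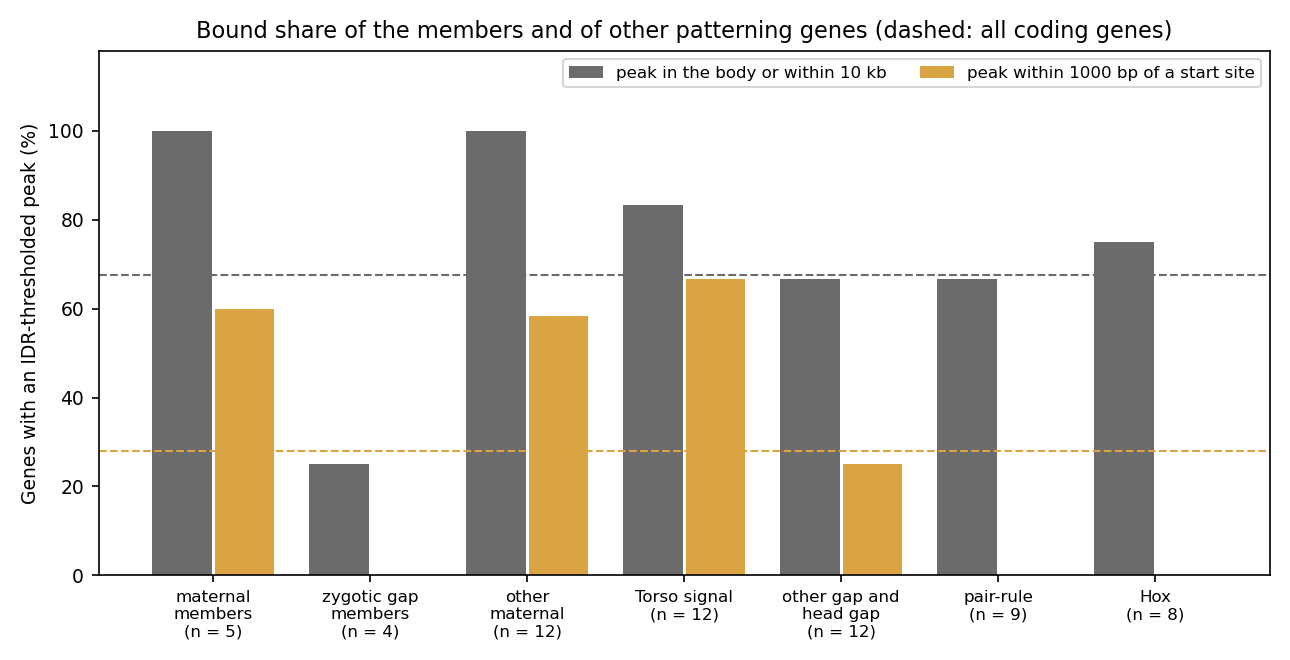
Percent of genes with an IDR-thresholded peak in the body or within 10 kb (grey) and within 1000 bp of a start site (yellow), for the 5 maternal and 4 zygotic gap genes described here and for 5 other lists, with the percent of all protein-coding genes as dashed lines (67.5% and 27.9%). Both maternal groups and the Torso signal list stand above the dashed lines, and the 4 zygotic gap genes stand below both. The other gap and head gap genes (66.7% and 25%) lie close to both lines. Pair-rule genes (66.7% and 0%) lie close to the first line and below the second. Hox genes (75% and 0%) lie above the first line and below the second.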

How the data were processed

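Peak lists of ChIP-seq on dpn-eGFP embryos were used as deposited, for 3 replicates of 1 group. Per the deposited lists of files, the authors made 1 list for every replicate and another from all replicates combined, each with a control alignment as input. Which aligner and caller were used is not given in the sources used here. In the deposited lists, the seventh column is the authors' signal value of a region and served only to rank entries within a list. Other columns give the authors' −log10 of a q-value and, per the deposited lists, the summit offset in bp. The dm6 lists were used; dm3 lists were not used here. Genes and start sites came from Ensembl release 115 and sequence from RefSeq, both of fly release 6.

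A window is the gene body with 10 kb on either side. Summits were matched within 150 bp, so neighbouring summits can share a match. In the lists of other genes, 3 symbols were updated through RefSeq synonyms. No test was run, since there is 1 condition. The lists, the members and the rules were chosen with earlier results of these data known. Named list genes are the 4 with the strongest peak in each pathway list, and those without a peak where at most 3 had none; Kr, hb and knrl were chosen after their values were seen, and 1 gene under the rule is not reported here. Alternatives changed the windows, the peak set, the class of cad and the replicates. Counting was tested on simulated positions. Python 3.11.15 with pandas 2.3.3, numpy 2.4.6 and matplotlib 3.10.9 was used.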

Additional observations from a re-analysis of the deposited data

How the results depend on the processing

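Around maternal genes the 9 reproducible peaks became 4 within 2 kb, 2 in gene bodies and 2 among peaks nearest to the gene's own start site. Around zygotic gap genes the 1 peak became 0 within 5 kb, within 2 kb, in gene bodies, by nearest start site and in the stronger part of the list. Leaving out each replicate in turn gave 7 to 8 maternal peaks and 0 to 1 zygotic peaks, with 0 without replicate 1 and without replicate 2. Per 10 kb, maternal windows held 0.706 reproducible peaks, and 0.904 within 5 kb, 0.844 within 2 kb, 0.157 by nearest start site, 0.471 in the stronger part of the list, 0.341 away from other start sites (chosen after seeing the data) and 0.549 to 0.628 with a replicate left out. Zygotic windows held 0.113, and 0 in the settings named above and away from other start sites, with 0 to 0.113 when a replicate was left out. The 6 genes with a peak became 4 within 5 kb, 4 within 2 kb, 4 in the stronger part of the list, 2 in gene bodies and 2 by nearest start site. The 3 genes with a peak within 1000 bp of their own start site became 2 within 500 bp. Pooled entries per 10 kb moved to 3.58 for maternal and 2.03 for zygotic genes within 2 kb, and to 3.65 and 4.64 in gene bodies. There the order of the classes turned, with overlapping entries of kni and of hkb counted separately. The causes were not tested. Leaving cad out of the maternal class gave 7 peaks. The motif counts moved with 100 bp on either side for CAGGTA (1 of the 10, beside 4.2% of all IDR-thresholded summits) and TTTATG (4 of the 10, beside 20.6%). Without read counts, the error of a single rank is unknown.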
